A study of Mus musculus with 9 samples.

Results

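The genes described here encode the Wnt ligands, their receptors and co-receptors, their secreted antagonists and a few proteins that carry or limit the signal inside the cell. The rule that picked them uses gene symbols and no measured value, except that the probe set of highest mean stands for each gene. It was set with earlier results of these data known. A member is a gene named Wnt, Fzd, Sfrp, Dkk or Rspo with a number, or 1 of 15 further genes of the pathway, among them Frzb, Wif1, Lrp5, Lrp6, Axin2, Ctnnb1 and Tcf7l2. This gave 56 members among 22180 genes measured, namely 19 ligands, 10 frizzled receptors, 5 co-receptors, 4 R-spondins, 2 ligases that remove receptors, 11 secreted antagonists and 5 intracellular proteins. Fzd10os, an opposite-strand transcript, was not counted as a member.

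The tissue was periprostatic fat, which surrounds the prostate, taken from male C57BL/6J mice (C57BL/6 in the strain label) at 18 weeks of age. In the high fat group 5 mice ate a 60 kcal% fat diet, and in the low fat group 4 mice ate a 10 kcal% fat diet, in both cases freely and for 12 weeks from the age of 6 weeks. The labels name no modified allele and no drug in either group, and the tissue was frozen before RNA of an integrity number above 7 was taken. Each mouse gave 1 Affymetrix Mouse Gene 2.0 ST array, and all values below are log2 expression of a probe set, so that differences are log2 differences, high fat minus low fat. The comparison asks how transcripts of this signalling family differ in the depot between the diets.

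Wnt proteins are secreted lipid-modified ligands that bind frizzled receptors together with Lrp5 or Lrp6. In the canonical branch this stabilises beta-catenin, which acts with Tcf and Lef factors on target genes, while other branches run through Ror and Ryk receptors. In adipose tissue canonical Wnt signalling is known to restrain the differentiation of precursors into adipocytes, and the secreted frizzled-related proteins (Sfrp) bind Wnt ligands outside the cell.

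The tissue showed the markers of fat. The mean of 8 adipocyte markers lay at 12.52 to 12.69 in high fat mice and 12.74 to 12.78 in low fat mice, and of 10 epithelial markers of prostate and seminal vesicle 7 lay below a mean of 6.30, the level under which 95% of olfactory receptor genes fell. That level serves below as a mark of dim probe sets. It is not a detection call, since probe sets differ in response. Single arrays stood apart: the mean of 8 smooth muscle markers was 10.21 in low fat mouse 2, where the remaining low fat mice had 8.11 to 8.13, and that of 8 skeletal muscle markers was 8.56 in high fat mouse 1, where the rest of that group had 6.55 to 6.67. Macrophage markers (11 of 11 higher, mean 10.75 to 11.40 against 9.44 to 9.92) and progenitor and fibroblast markers (6 of 10 higher, mean 10.63 to 11.06 against 9.85 to 10.24) were higher in high fat mice, and 6 of 8 adipocyte markers were lower and 1, Lep, was higher. In bulk tissue, fewer cells of a type and less RNA per cell cannot be told apart, and the part of these markers in the results below was not tested.

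In high fat mice the secreted antagonists Sfrp4, Sfrp2 and Dkk3, the receptors Ror1 and Fzd2 and the ligands Wnt5a and Wnt8b were higher. The transcription factors Tcf7l2 and Tcf7l1, the ligase Znrf3 and the receptors Fzd4 and Fzd6 were lower. By limma with Benjamini-Hochberg adjustment over all genes, 12 of the 56 members passed an adjusted p of 0.05, which is 21.4% against 21.5% of all genes. Of the members 7 (12.5%) were higher and 5 (8.93%) lower, against 12.4% and 9.13% of all genes, shares that do not allow for brightness. In 11 members (19.6%) all values of 1 diet lay above all of the other, against 20.7% of all genes. The median difference of the members was 0.085, against -0.0011 over all genes, and 16 of the 56 members (28.6%) lay below the 6.30 mark, against 38.6% of all genes. With dim genes left out, 7 of the 40 remaining members were higher and 5 lower. Of the 13617 genes then tested, 2772 were higher and 2018 lower, a larger share than of the members, a gap that was not tested. By role the dim share of members ran from 0% to 50%, so shares of all genes are not at like brightness for the roles below. Before adjustment, 23 members (41.1%) had a p under 0.05, against 32.7% of all genes. Without high fat mouse 1 the counts were 7 higher and 5 lower, without low fat mouse 2 they were 7 and 4, and without high fat mice 1 and 2, whose values spread more widely over the array, they were 5 and 3. Like counts need not be the same genes. Without low fat mouse 2, 5 of the 7 higher members were shared with the main fit and 2, Sfrp1 and Ror2, were new. Without high fat mice 1 and 2, 4 of the 5 were shared. Leaving out high fat mouse 2, 3 or 5 or low fat mouse 1 or 3 each gave 3 lower members. With quantile normalization repeated 5 members were higher and 5 lower, whereas over all genes the split turned from 2742 higher and 2026 lower to 2320 and 2771.

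**Figure D1:**
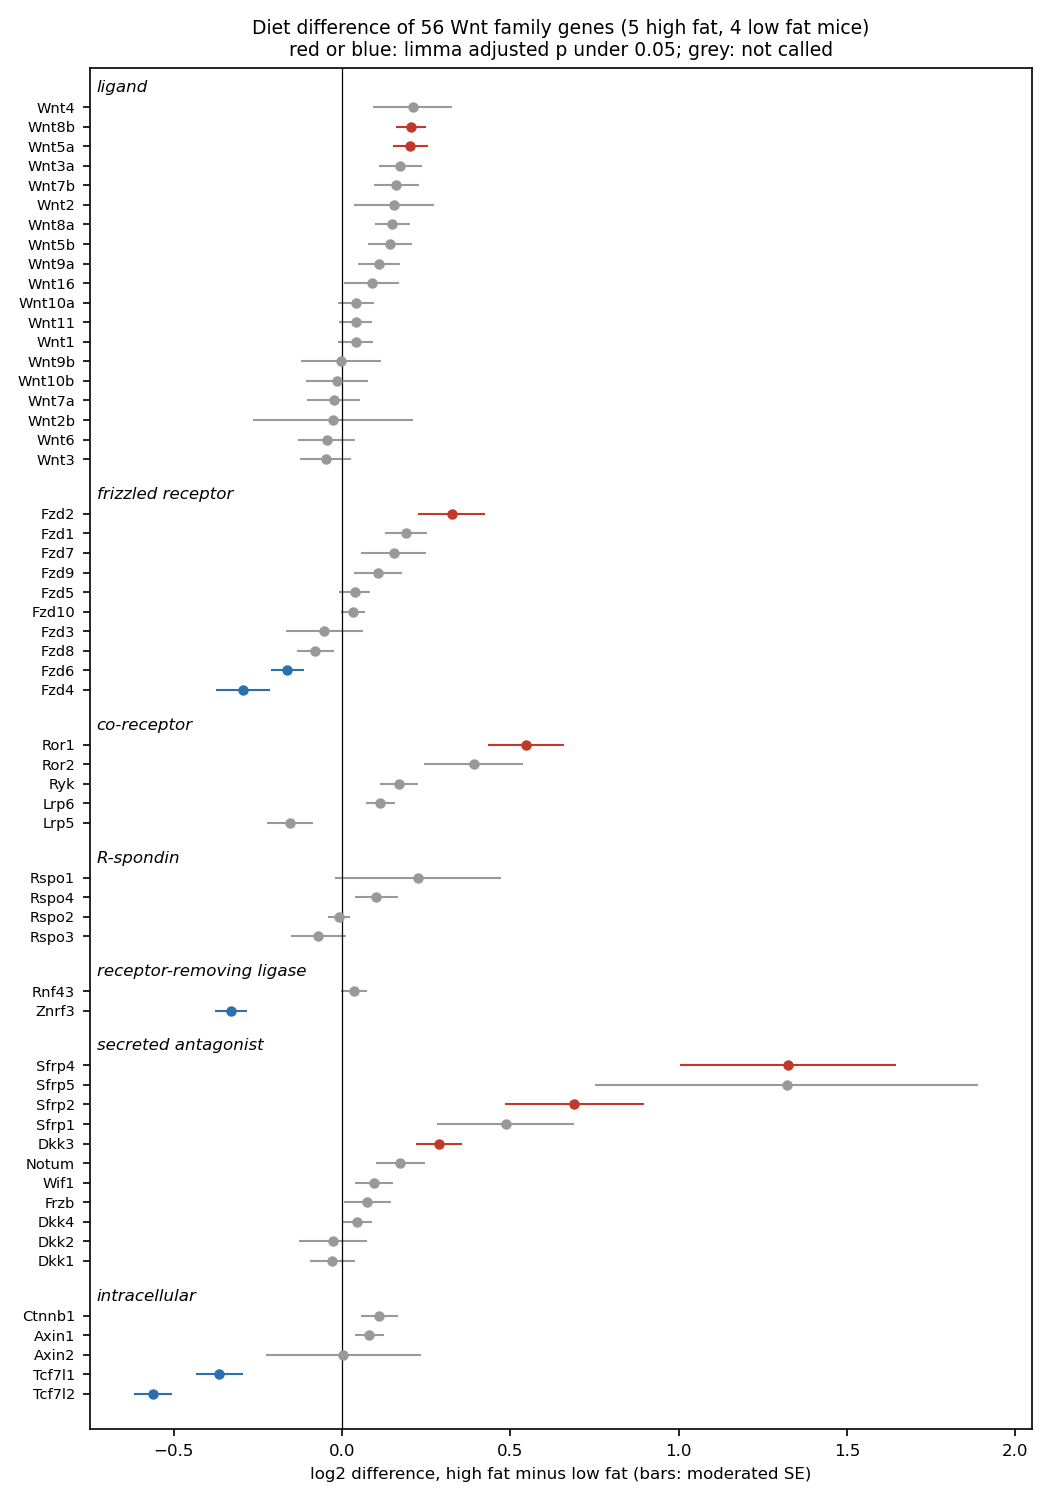
Log2 difference between high fat (n = 5) and low fat (n = 4) mice for the 56 members, grouped by role on the y axis; points are differences, bars the moderated SE, red or blue marks an adjusted p under 0.05 and grey the rest. Most members lie close to 0, the Sfrp genes reach 1.32 and Tcf7l2 lies lowest at -0.56.

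Among the secreted antagonists, 3 of 11 rose and 0 fell by limma (27.3% against 21.5% of all genes), and 6 (54.5%) had an unadjusted p under 0.05, against 32.7% of all genes. The 5 Sfrp-type genes (Sfrp1, Sfrp2, Sfrp4, Sfrp5 and Frzb) had a median difference of 0.69. Sfrp4, a frizzled-related protein that binds Wnt ligands (probe set 17285546), measured 7.45, 7.14, 7.51, 7.20 and 8.91 in high fat mice 1 to 5 and 6.40, 6.17, 6.58 and 6.13 in low fat mice 1 to 4. Every high fat mouse lay above every low fat mouse, and high fat mouse 5 stood well above the rest of its group. The difference was 1.32 ± 0.32 (SE), a 2.50-fold rise with a limma adjusted p of 0.0153, and without high fat mouse 5 it was 1.01 with an adjusted p of 0.000747.

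Sfrp2, its relative that is abundant in fibroblasts (probe set 17398557), measured 8.61, 8.77, 8.63, 9.28 and 9.60 in high fat mice 1 to 5 and 8.40, 7.98, 8.47 and 8.30 in low fat mice 1 to 4. Its groups did not overlap, though high fat mouse 1 at 8.61 lay just above low fat mouse 3 at 8.47. Sfrp2 was 1.61-fold higher (0.69 ± 0.21 (SE), limma adjusted p = 0.0384). The call was lost in 10 of 18 alternatives, with quantile normalization repeated at an adjusted p of 0.0622 and among single mice without high fat mouse 2 or 4 or any 1 low fat mouse, the weakest without low fat mouse 2 at 0.105. A further Sfrp2 probe set, dim at means of 5.86 in high fat and 5.80 in low fat mice, differed by 0.062 and did not pass. Whether so dim a probe set reports the transcript was not determined. The mean of the Sfrp2 probe sets differed by 0.38 (limma adjusted p = 0.032).

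The start of Sfrp2 is shown as the called member with the largest rise for which a promoter sequence was at hand, and that of Tcf7l2 as the one with the largest fall; both were picked after the values were seen. The windows run from 250 bases before to 50 after the start, 5′ to 3′ on the gene's strand, from RefSeq on GRCm38.p6, with CG dinucleotides in capitals. Sfrp2 lies at chr3:83766071-83766370 on the plus strand, and the upstream of the 2 Tcf7l2 windows lies at chr19:55741560-55741859 on the plus strand.
Sfrp2: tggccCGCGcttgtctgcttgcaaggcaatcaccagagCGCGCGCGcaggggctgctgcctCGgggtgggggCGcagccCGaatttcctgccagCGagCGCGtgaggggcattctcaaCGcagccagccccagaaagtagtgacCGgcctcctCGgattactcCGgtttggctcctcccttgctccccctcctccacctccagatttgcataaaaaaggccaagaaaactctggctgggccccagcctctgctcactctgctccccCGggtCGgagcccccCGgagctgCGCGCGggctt
Tcf7l2: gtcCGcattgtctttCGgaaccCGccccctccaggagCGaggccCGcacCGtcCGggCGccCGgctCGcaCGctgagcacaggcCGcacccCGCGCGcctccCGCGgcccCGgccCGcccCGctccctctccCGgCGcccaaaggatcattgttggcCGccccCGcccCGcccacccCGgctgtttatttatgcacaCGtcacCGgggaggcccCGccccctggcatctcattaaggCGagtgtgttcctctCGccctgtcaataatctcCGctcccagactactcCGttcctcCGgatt

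These windows hold 22 CG dinucleotides for Sfrp2 and 34 for Tcf7l2, against a median of 7 over all 32851 promoter windows of this length and 29 over the 43 windows of 37 members. As many CG dinucleotides as in Sfrp2 were found in 23.1% of all windows and as many as in Tcf7l2 in 7.73%, while the other Tcf7l2 window holds 7. The letters CTTTGAA or CTTTGAT, on either strand, which follow the core that Tcf and Lef factors are known to bind, were in 8.65% of all windows and in 3 of the 43 member windows, those of Dkk1, Wnt11 and Wnt5b. None of the 6 called members with a window (Fzd4, Ror1, Sfrp2, Tcf7l1, Tcf7l2 and Wnt8b) held them there, which says nothing about sites elsewhere.

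Sfrp5, an adipocyte-expressed antagonist of Wnt5a signalling known as an adipokine (probe set 17364820), had a difference as large as that of Sfrp4 but did not pass. It measured 11.43, 11.16, 11.30, 11.65 and 10.68 in high fat mice 1 to 5 and 10.90, 7.80, 10.95 and 10.05 in low fat mice 1 to 4. Low fat mouse 2 was lowest by over 2 log2 units, and high fat mouse 5 fell below low fat mice 1 and 3, so the groups overlapped. The difference was 1.32 ± 0.57 (SE) (limma adjusted p = 0.138, range over all fits 0.0857 to 0.308), and without low fat mouse 2 it was 0.61 with an adjusted p of 0.138.

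Mest, Bmp3 and Nkd1, named here after their values were seen, ordered the mice in much the same way. The share of all genes with such an order was not counted, and the likeness was not tested. Mest, an imprinted gene of adipose tissue growth, measured 12.33, 12.34, 12.28, 12.36 and 12.13 in high fat mice 1 to 5 and 11.20, 9.02, 11.26 and 10.56 in low fat mice 1 to 4. Bmp3, a ligand of the BMP family, measured 9.33, 9.56, 9.66, 9.84 and 9.31 in high fat mice 1 to 5 and 8.99, 8.22, 9.02 and 8.64 in low fat mice 1 to 4. Nkd1, an intracellular inhibitor of Wnt signalling and itself a target of the pathway, measured 8.90, 8.78, 8.69, 8.97 and 8.54 in high fat mice 1 to 5 and 8.13, 7.72, 8.18 and 7.77 in low fat mice 1 to 4. In Sfrp5 and in each of these, the low fat mice ran from mouse 3 through 1 and 4 down to mouse 2, and among high fat mice number 4 was highest and number 5 lowest. Unlike Sfrp5, the others separated the diets and passed limma, with differences of 1.78 for Mest, 0.82 for Bmp3 and 0.83 for Nkd1 (adjusted p = 0.0091, 0.00702 and 0.000938). The mean of the adipocyte markers was 12.77 in low fat mouse 2, within the 12.74 to 12.78 of the low fat group, while its smooth muscle markers stood apart as given above.

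**Figure D2:**
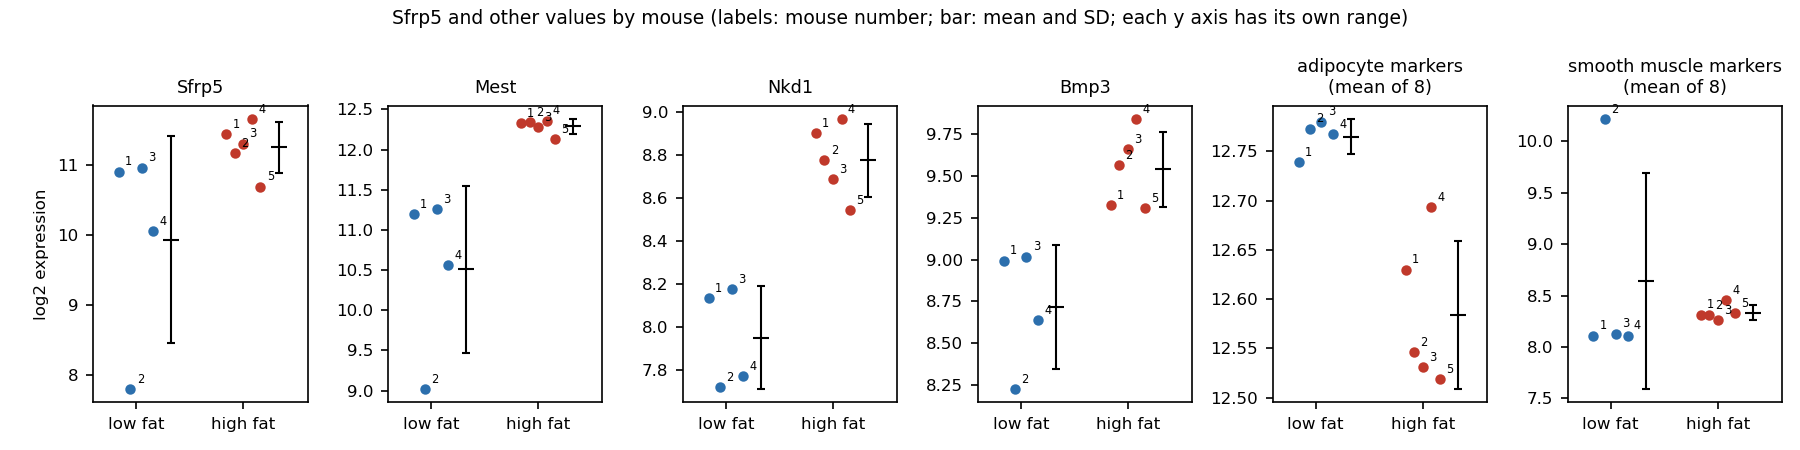
Log2 expression by mouse of Sfrp5, Mest, Nkd1 and Bmp3 and the means of 8 adipocyte and 8 smooth muscle markers; points are mice labelled by number, bars the mean and SD of 5 high fat and 4 low fat mice, and each y axis has its own range. Low fat mouse 2 is lowest in the 4 genes and highest in smooth muscle markers, at 7.80 for Sfrp5 and 10.21 for the markers.

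Sfrp1, another frizzled-related antagonist, measured 7.84, 8.03, 8.30, 8.52 and 8.56 in high fat mice 1 to 5 and 7.66, 8.35, 7.61 and 7.43 in low fat mice 1 to 4. The low fat range was set by mouse 2, which reached into the high fat values. Its difference of 0.49 ± 0.20 (SE) did not pass (limma adjusted p = 0.125), but without low fat mouse 2 it was 0.68 with an adjusted p of 0.0191.

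Dkk3, a divergent member of the Dickkopf family whose other members block Lrp5 and Lrp6 (probe set 17495191), measured 7.28, 7.46, 7.33, 7.42 and 7.48 in high fat mice 1 to 5 and 7.20, 7.24, 6.97 and 7.01 in low fat mice 1 to 4. All high fat mice lay above all low fat mice, by a small step. The rise was 1.22-fold (0.29 ± 0.068 (SE), limma adjusted p = 0.0135) and passed in every one of the 18 alternatives. Dkk2, a Dickkopf antagonist of Lrp5 and Lrp6, measured 6.48, 6.22, 6.23, 6.46 and 6.69 in high fat mice 1 to 5 and 6.30, 6.44, 6.44 and 6.59 in low fat mice 1 to 4, with overlapping groups and a difference of -0.026 ± 0.10 (SE) (limma adjusted p = 0.894). Wif1, an antagonist that binds Wnt ligands directly, measured 6.34, 6.23, 6.48, 6.44 and 6.34 in high fat mice 1 to 5 and 6.31, 6.19, 6.24 and 6.34 in low fat mice 1 to 4, close to the 6.30 mark, and differed by 0.095 ± 0.058 (SE) (limma adjusted p = 0.299). The other antagonists (Dkk1, Dkk4, Frzb and Notum, the enzyme that strips the lipid from Wnt ligands) had differences of -0.030 to 0.17, did not pass and lay below the 6.30 mark.

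Of the 19 ligands, 2 rose and 0 fell by limma (10.5% against 21.5% of all genes), and 5 (26.3%) had an unadjusted p under 0.05, against 32.7% of all genes. The 8 ligands below the 6.30 mark (42.1%) were about as large a share as over all genes (38.6%). Wnt5a, the main ligand of the Ror branch (probe set 17298112), measured 7.45, 7.44, 7.39, 7.41 and 7.46 in high fat mice 1 to 5 and 7.26, 7.29, 7.28 and 7.07 in low fat mice 1 to 4. The groups did not overlap, with high fat mice tightly bunched and low fat mouse 4 lowest. The rise was 1.15-fold (0.20 ± 0.052 (SE), limma adjusted p = 0.0194). The call was lost in 2 of 18 alternatives, 1 of them without high fat mice 1 and 2 (adjusted p = 0.0954), though the difference of 0.19 was nearly the same.

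Wnt8b, a ligand of the developing brain (probe set 17359707), measured 5.95, 6.00, 6.02, 5.85 and 5.89 in high fat mice 1 to 5 and 5.68, 5.77, 5.74 and 5.76 in low fat mice 1 to 4. The groups did not overlap, but all 9 values lay under the 6.30 mark, so whether the probe set reports the transcript here was not determined. Its difference was 0.20 ± 0.046 (SE) with a limma adjusted p of 0.0101, and without high fat mice 1 and 2 it no longer passed (adjusted p = 0.0662).

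Wnt10b, a canonical ligand known to hold back adipocyte differentiation, measured 6.32, 6.21, 6.32, 6.61 and 6.27 in high fat mice 1 to 5 and 6.28, 6.25, 6.58 and 6.34 in low fat mice 1 to 4. The groups overlapped fully and the difference of -0.015 ± 0.092 (SE) did not pass (limma adjusted p = 0.934). Wnt4, a ligand of both branches, measured 6.68, 6.74, 6.94, 6.85 and 6.95 in high fat mice 1 to 5 and 6.85, 6.29, 6.84 and 6.51 in low fat mice 1 to 4, with low fat mice 1 and 3 inside the high fat range and low fat mice 2 and 4 below it (0.21 ± 0.12 (SE), limma adjusted p = 0.253). Without low fat mouse 2 the Wnt4 difference was 0.098 (adjusted p = 0.546). The other 15 ligands did not pass: Wnt1, Wnt2, Wnt2b, Wnt3, Wnt3a, Wnt5b, Wnt6, Wnt7a, Wnt7b, Wnt8a, Wnt9a, Wnt9b, Wnt10a, Wnt11 and Wnt16 had differences from -0.049 for Wnt3 to 0.17 for Wnt3a.

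Of the 10 frizzled receptors 1 was higher and 2 lower by limma (10% and 20%, against 12.4% and 9.13% of all genes), which is no more than 2 genes in either direction. Fzd2 (probe set 17256975) measured 6.85, 7.24, 6.82, 7.01 and 6.96 in high fat mice 1 to 5 and 6.68, 6.70, 6.80 and 6.41 in low fat mice 1 to 4. High fat mouse 3 at 6.82 and low fat mouse 3 at 6.80 nearly touched, though the groups did not overlap. Fzd2 was 1.25-fold higher (0.33 ± 0.10 (SE), limma adjusted p = 0.0421), a call that was lost in 11 of 18 alternatives, among them both rescalings (adjusted p = 0.0712 with quantile normalization repeated and 0.0594 with arrays centred on their medians). Leaving out high fat mouse 2, 4 or 5 or low fat mouse 1, 2 or 4 also ended it, at adjusted p up to 0.107 without low fat mouse 4.

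Fzd4, the receptor of Norrin as well as of Wnt ligands (probe set 17480036), measured 12.09, 11.97, 12.09, 12.29 and 11.98 in high fat mice 1 to 5 and 12.37, 12.19, 12.49 and 12.45 in low fat mice 1 to 4. High fat mouse 4 lay above low fat mouse 2, so the groups overlapped. Fzd4 was 1.23-fold lower (-0.29 ± 0.080 (SE), limma adjusted p = 0.0261). Leaving out high fat mouse 2, 3 or 5 or low fat mouse 1, 3 or 4 ended the call, at adjusted p from 0.0539 to 0.0735, as did leaving out high fat mice 1 and 2 together (0.124).

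Fzd6 (probe set 17311179) measured 7.61, 7.52, 7.55, 7.61 and 7.50 in high fat mice 1 to 5 and 7.82, 7.73, 7.72 and 7.61 in low fat mice 1 to 4, and low fat mouse 4 and high fat mice 1 and 4 shared 1 value, which is where the groups met. Fzd6 was 1.12-fold lower (-0.16 ± 0.050 (SE), limma adjusted p = 0.0412), and the call was lost in 11 of 18 alternatives. Without low fat mouse 1 the difference was -0.13, and leaving out any mouse but high fat mouse 1, high fat mouse 4 or low fat mouse 4 ended the call. Fzd1 measured 8.55, 8.61, 8.70, 8.55 and 8.70 in high fat mice 1 to 5 and 8.55, 8.51, 8.30 and 8.37 in low fat mice 1 to 4, with 3 mice of both diets at 8.55, and its difference of 0.19 ± 0.062 (SE) fell short (limma adjusted p = 0.0579). It passed in 3 of 18 alternatives, among them without low fat mouse 1 (0.23, adjusted p = 0.0363). The other 6 receptors, Fzd3, Fzd5, Fzd7, Fzd8, Fzd9 and Fzd10, differed by -0.080 to 0.15 and did not pass. The values in Fzd6 and Fzd1 that several arrays share are a feature of the table: 13 members had 3 or more arrays at 1 value, and Rspo2 had 7.

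**Figure D3:**
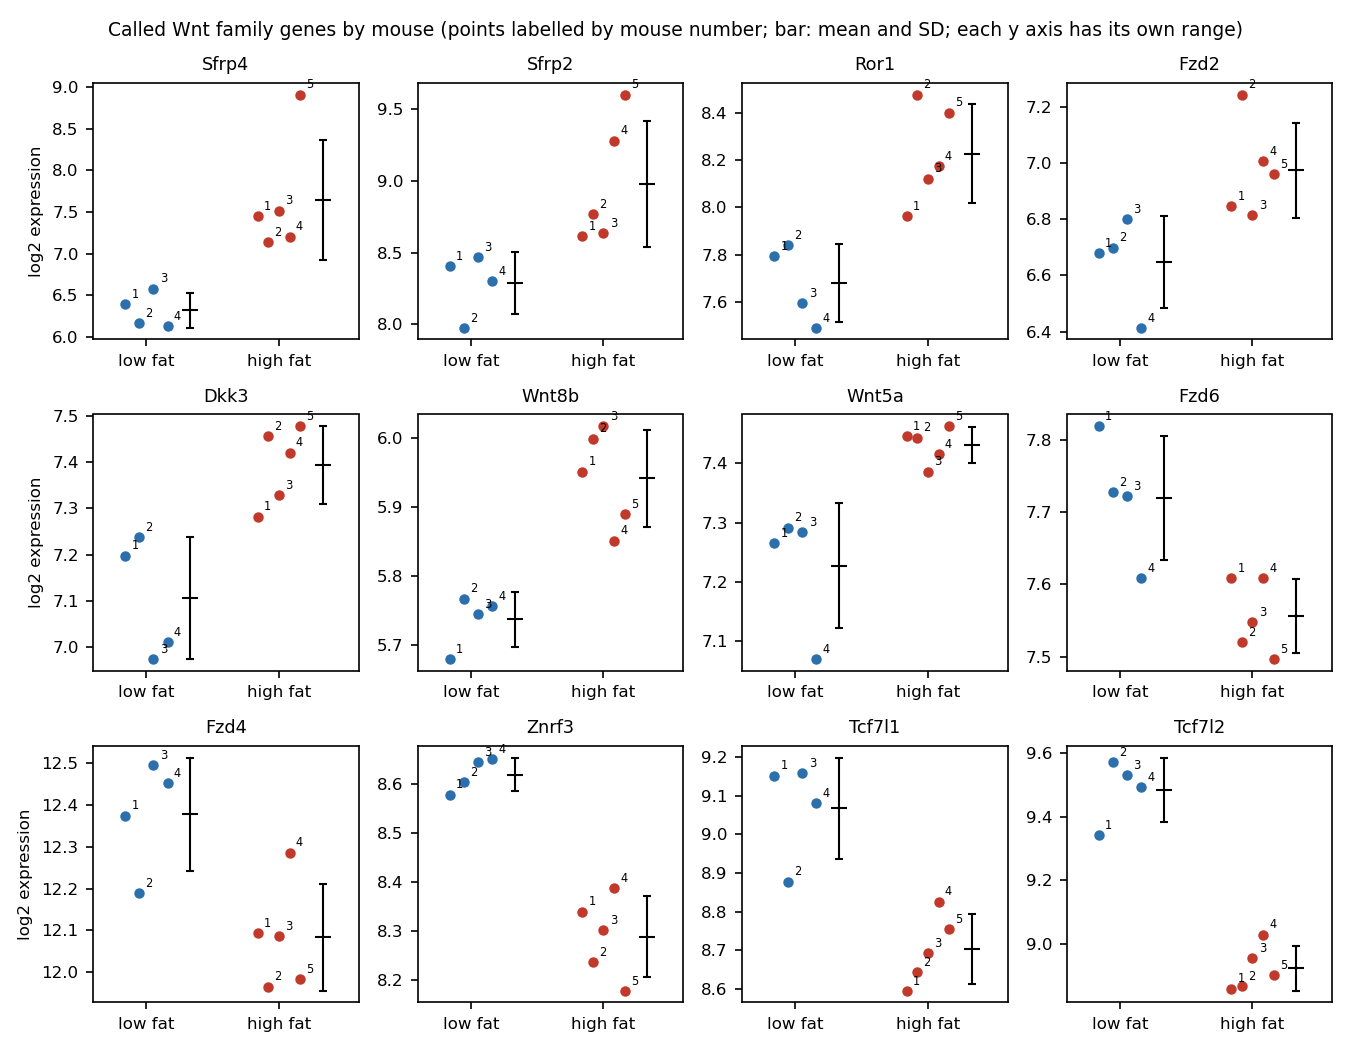
Log2 expression by mouse of the 12 members that passed limma at an adjusted p of 0.05, ordered from the largest rise to the largest fall; points are mice labelled by number, bars the mean and SD of 4 low fat and 5 high fat mice, and each y axis has its own range. The diets meet or overlap in Fzd4 and Fzd6 and are apart in the other 10, with Tcf7l2 at 8.86 to 9.03 against 9.34 to 9.57.

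Of the co-receptors, 1 of 5 rose and 0 fell by limma (20% against 21.5% of all genes), and all 5 had an unadjusted p under 0.05, against 32.7% of all genes. None of the 5 was dim, against 38.6% of all genes, so these shares are not at like brightness. Ror1, a receptor tyrosine kinase-like protein that binds Wnt5a (probe set 17415835), measured 7.96, 8.48, 8.12, 8.18 and 8.40 in high fat mice 1 to 5 and 7.79, 7.84, 7.59 and 7.49 in low fat mice 1 to 4. All high fat mice were above all low fat mice, and the rise was 1.46-fold (0.55 ± 0.11 (SE), limma adjusted p = 0.00677), which passed in all 18 alternatives. Ror2, its close relative, measured 7.41, 7.60, 7.67, 7.88 and 7.84 in high fat mice 1 to 5 and 6.84, 7.60, 7.29 and 7.43 in low fat mice 1 to 4. Low fat mouse 2 shared the value of high fat mouse 2, and the difference of 0.39 ± 0.15 (SE) did not pass (limma adjusted p = 0.0936) except without that low fat mouse (0.49, adjusted p = 0.0451). Without low fat mouse 1, the lowest, the difference was 0.24 (adjusted p = 0.186).

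Lrp5 and Lrp6, the co-receptors of the canonical branch, pointed in opposite directions and neither passed. Lrp5 measured 9.65, 9.59, 9.54, 9.73 and 9.50 in high fat mice 1 to 5 and 9.67, 9.68, 9.94 and 9.73 in low fat mice 1 to 4, with a difference of -0.16 ± 0.068 (SE) (limma adjusted p = 0.141), which was -0.095 without low fat mouse 3. Lrp6 measured 10.90, 11.00, 10.96, 10.88 and 10.88 in high fat mice 1 to 5 and 10.81, 10.76, 10.88 and 10.79 in low fat mice 1 to 4, with a difference of 0.11 ± 0.042 (SE) (limma adjusted p = 0.0882), which was 0.070 with arrays centred on their medians. A further Lrp6 probe set, with means of 7.40 in high fat and 7.36 in low fat mice, differed by 0.040 and did not pass. The mean of the Lrp6 probe sets differed by 0.077 (limma adjusted p = 0.333). The groups overlapped in Lrp5 and met at 1 shared value in Lrp6. Ryk, an atypical Wnt receptor, differed by 0.17 ± 0.057 (SE) with an adjusted p of 0.0645, and its groups did not overlap.

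Znrf3, a membrane ubiquitin ligase that removes frizzled receptors from the cell surface and is itself induced by canonical signalling (probe set 17260150), measured 8.34, 8.24, 8.30, 8.39 and 8.18 in high fat mice 1 to 5 and 8.58, 8.60, 8.64 and 8.65 in low fat mice 1 to 4. The groups were far apart for so small a step, with 8.29 ± 0.083 (SD, n = 5) against 8.62 ± 0.034 (SD, n = 4). Znrf3 was 1.26-fold lower (-0.33 ± 0.049 (SE), limma adjusted p = 0.00107) and passed in all 18 alternatives. Rnf43, the ligase of the same family, was dim and differed by 0.036 ± 0.039 (SE) (limma adjusted p = 0.576). Whether the genes of this pair differ in their response was not tested.

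The R-spondins, which keep Znrf3 and Rnf43 away from frizzled receptors, did not pass limma in any of 4 members, and 0 had an unadjusted p under 0.05, against 32.7% of all genes. Rspo1 measured 8.94, 9.60, 9.08, 9.27 and 10.04 in high fat mice 1 to 5 and 9.42, 9.53, 9.10 and 8.59 in low fat mice 1 to 4, a range of over 1 log2 unit that did not follow diet (0.22 ± 0.25 (SE), limma adjusted p = 0.583). The Rspo1 difference was 0.062 without high fat mouse 5, 0.034 without low fat mouse 4 and 0.35 without low fat mouse 2, and passed in none of these. Rspo3 measured 6.52, 6.52, 6.43, 6.52 and 6.64 in high fat mice 1 to 5 and 6.68, 6.74, 6.64 and 6.33 in low fat mice 1 to 4 and differed by -0.071 ± 0.081 (SE) (limma adjusted p = 0.601). Rspo2 and Rspo4 were dim, with differences of -0.011 and 0.10.

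Rspo1 and the ligand Wnt2b varied between mice of 1 diet, as did markers of mesothelium, the cell layer that covers fat depots. Wnt2b measured 7.54, 8.07, 7.48, 7.92 and 8.32 in high fat mice 1 to 5 and 8.31, 8.23, 7.77 and 7.26 in low fat mice 1 to 4, with no difference by diet that passed (-0.028 ± 0.24 (SE), limma adjusted p = 0.955). The mean of 7 mesothelial markers (Msln, Upk3b, Upk1b, Lrrn4, Wt1, Krt19 and Muc16) was 8.12, 8.89, 7.97, 8.46 and 9.30 in high fat mice 1 to 5 and 8.63, 8.65, 8.08 and 7.54 in low fat mice 1 to 4, and 0 of the 7 passed by diet. High fat mouse 5 was highest and low fat mouse 4 lowest in Rspo1, in Wnt2b and in the markers. This pattern was seen in the values and not tested, and all the points of a mouse share 1 array.

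**Figure D4:**
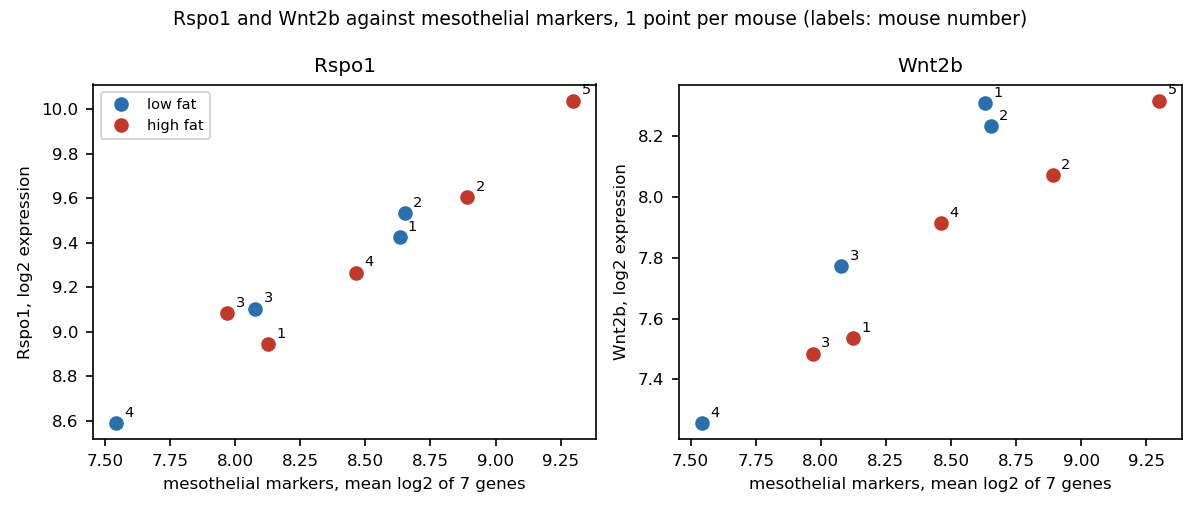
Log2 expression of Rspo1 (left) and Wnt2b (right) on the y axes against the mean log2 expression of 7 mesothelial markers on the x axes; each point is 1 of 9 mice, coloured by diet and labelled by mouse number. Values of both genes tend to be higher where the markers are, from low fat mouse 4 at a marker mean of 7.54 to high fat mouse 5 at 9.30. In Wnt2b, low fat mice 1 to 3 each lie above a high fat mouse of higher marker mean. Low fat mouse 1 is at 8.31 for a marker mean of 8.63, and high fat mouse 2 at 8.07 for 8.89.

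Inside the cell, the Tcf factors fell while beta-catenin and the Axin genes did not pass (2 of 5 members lower and 0 higher by limma, 40% against 21.5% of all genes, and 2 with an unadjusted p under 0.05). Tcf7l2, a main nuclear partner of beta-catenin and a known type 2 diabetes gene (probe set 17360501), measured 8.86, 8.87, 8.95, 9.03 and 8.90 in high fat mice 1 to 5 and 9.34, 9.57, 9.53 and 9.49 in low fat mice 1 to 4. High fat mice reached at most 9.03 and low fat mice no less than 9.34. Tcf7l2 was 1.48-fold lower (-0.56 ± 0.057 (SE), limma adjusted p = 0.000173), with the smallest adjusted p among the members, and the adjusted p stayed between 0.000113 and 0.00336 over all fits.

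Tcf7l1, a Tcf factor that often acts as a repressor (probe set 17467806), measured 8.60, 8.64, 8.69, 8.83 and 8.76 in high fat mice 1 to 5 and 9.15, 8.88, 9.16 and 9.08 in low fat mice 1 to 4. The groups did not overlap, with low fat mouse 2 nearest to the high fat mice. It was 1.29-fold lower (-0.36 ± 0.070 (SE), limma adjusted p = 0.0044) and passed in all 18 alternatives. Both factors fell in the same arrays in which 6 of 8 adipocyte markers were lower, with a median difference of -0.29 over the 8, and the part of that shift in the fall of Tcf7l2 and Tcf7l1 was not tested.

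Ctnnb1, which encodes beta-catenin, measured 11.44, 11.36, 11.29, 11.32 and 11.20 in high fat mice 1 to 5 and 11.25, 11.15, 11.16 and 11.29 in low fat mice 1 to 4. The groups overlapped and the difference of 0.11 ± 0.055 (SE) did not pass (limma adjusted p = 0.194). It was 0.067 with arrays centred on their medians and 0.060 without high fat mice 1 and 2. Axin2, a negative regulator and a widely used target gene of canonical signalling, measured 8.48, 8.18, 8.11, 8.64 and 7.43 in high fat mice 1 to 5 and 8.55, 7.86, 8.23 and 8.01 in low fat mice 1 to 4. The groups overlapped, and high fat mouse 5 was the lowest of all mice and high fat mouse 4 the highest, with a difference of 0.0040 ± 0.23 (SE) (limma adjusted p = 0.994) whose sign turned with either rescaling (-0.049 with quantile normalization repeated and -0.040 with centring). The further Axin2 probe set differed by -0.39 and did not pass either. Axin1, the scaffold of the complex that degrades beta-catenin, differed by 0.081 ± 0.042 (SE) (limma adjusted p = 0.22).

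Of 72 other genes listed for their known role in the pathway, 69 were measured. By limma 11 rose and 11 fell, which is 31.9% of the list against 21.5% of all genes. The median difference was 0.013 against -0.0011 over all genes. Dim genes made up 7.25% of the list (5 genes), against 38.6% of all genes. With dim genes left out, the list again had 11 higher and 11 lower. Of the 13617 genes then tested, 2772 were higher and 2018 lower, a larger share than 21.5% and much the same as in the list without its dim genes. The 21.5% is therefore not a comparison at like brightness for the list, and for its roles none was tested. With quantile normalization repeated 10 genes of the list rose and 16 fell. Without low fat mouse 4 the risers were 7. Of 10 genes known as targets of the pathway in other tissues 4 rose and 1 fell (50% against 21.5% of all genes). The 10 include the largest rises of the list, those of Ccn5 and Cd44. They leave out Nkd1, Znrf3 and Axin2, which are also described here as targets or as induced by the pathway. Of these Nkd1 rose (0.83), Znrf3 fell (-0.33) and Axin2 did not pass (0.0040), so the count depends on which targets were listed.

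Ccn5, a matricellular protein made by adipose precursors, measured 9.55, 9.71, 10.06, 10.57 and 9.44 in high fat mice 1 to 5 and 8.11, 8.21, 8.44 and 8.34 in low fat mice 1 to 4. Cd44, a hyaluronan receptor that leukocytes also carry, measured 9.29, 9.56, 9.47, 8.92 and 9.10 in high fat mice 1 to 5 and 8.12, 7.68, 7.72 and 7.41 in low fat mice 1 to 4. Ccnd1, the cyclin of the G1 phase, measured 9.55, 9.52, 9.65, 9.52 and 9.40 in high fat mice 1 to 5 and 8.83, 9.17, 8.69 and 8.56 in low fat mice 1 to 4. In all of these the diets did not overlap, with differences of 1.59 ± 0.21 (SE), 1.54 ± 0.16 (SE) and 0.71 ± 0.11 (SE) and limma adjusted p of 0.000542, 0.000184 and 0.00134. Ccn4 rose less (0.21 ± 0.047 (SE), adjusted p = 0.00991), and Jag1, a Notch ligand, fell (-0.34 ± 0.090 (SE), adjusted p = 0.0242). Myc, Sp5, Bambi, Mmp7 and Tnfrsf19 did not pass, at -0.11 to 0.14. Cd44 and Ccnd1 are also expressed by cells whose markers were higher in high fat mice, and the part of those cells was not tested.

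Inhibitors of the pathway moved in both directions. Apcdd1, a membrane-bound inhibitor of Wnt signalling, measured 10.72, 10.52, 10.50, 11.08 and 10.44 in high fat mice 1 to 5 and 11.58, 11.54, 11.60 and 11.62 in low fat mice 1 to 4. It fell by 1.90-fold (-0.93 ± 0.12 (SE), limma adjusted p = 0.00046), the largest fall on the list. Igfbp4 fell as well (-0.21 ± 0.042 (SE), adjusted p = 0.00588). Together they were 2 of 7 other secreted or membrane-anchored regulators (28.6% against 21.5% of all genes). Among 17 genes of cytoplasmic signalling 4 rose and 1 fell (29.4% against 21.5% of all genes). Nkd1, given above, rose 1.77-fold, Gsk3b, the kinase that marks beta-catenin for destruction, rose by 0.24 ± 0.041 (SE) (adjusted p = 0.00267), and the Dishevelled-binding proteins Dact1 and Dact3 rose by 0.51 and 0.22 (adjusted p = 0.0173 and 0.0367). Btrc, the ubiquitin ligase subunit that recognises marked beta-catenin, fell (-0.30 ± 0.045 (SE), adjusted p = 0.00112). The Dishevelled genes Dvl1, Dvl2 and Dvl3 did not pass (-0.011 to 0.12).

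Among 11 nuclear partners 3 fell and 1 rose (36.4% against 21.5% of all genes). Pygo1 and Bcl9, adaptors that link beta-catenin to transcription, fell by 0.49 and 0.30 on the log2 scale (limma adjusted p = 0.000393 and 0.00473). Of the Groucho-type corepressors Tle1 fell (-0.42, adjusted p = 0.0217) and Tle4 rose (0.26, adjusted p = 0.0181), while Lef1 was at -0.26 and did not pass (0.162). At the membrane, 2 of 12 genes rose and 2 fell (33.3% against 21.5% of all genes). The co-receptor Lrp4 (0.43, adjusted p = 0.0202) and Adgra2, an adhesion receptor of Wnt7 signalling (0.41, adjusted p = 0.019), rose. Tspan12, which helps Fzd4 receive Norrin (-0.51, adjusted p = 0.00279), and the glypican gene Gpc4 (-0.35, adjusted p = 0.0204) fell. Porcn, the enzyme that attaches the lipid to Wnt ligands, fell (-0.30 ± 0.073 (SE), adjusted p = 0.0169), while Wls, which carries ligands to the surface, was at 0.070 and did not pass (0.394). Of 10 planar cell polarity genes 1 fell (10% against 21.5% of all genes), the cadherin gene Celsr2 (-0.73 ± 0.089 (SE), adjusted p = 0.000391).

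**Figure D5:**
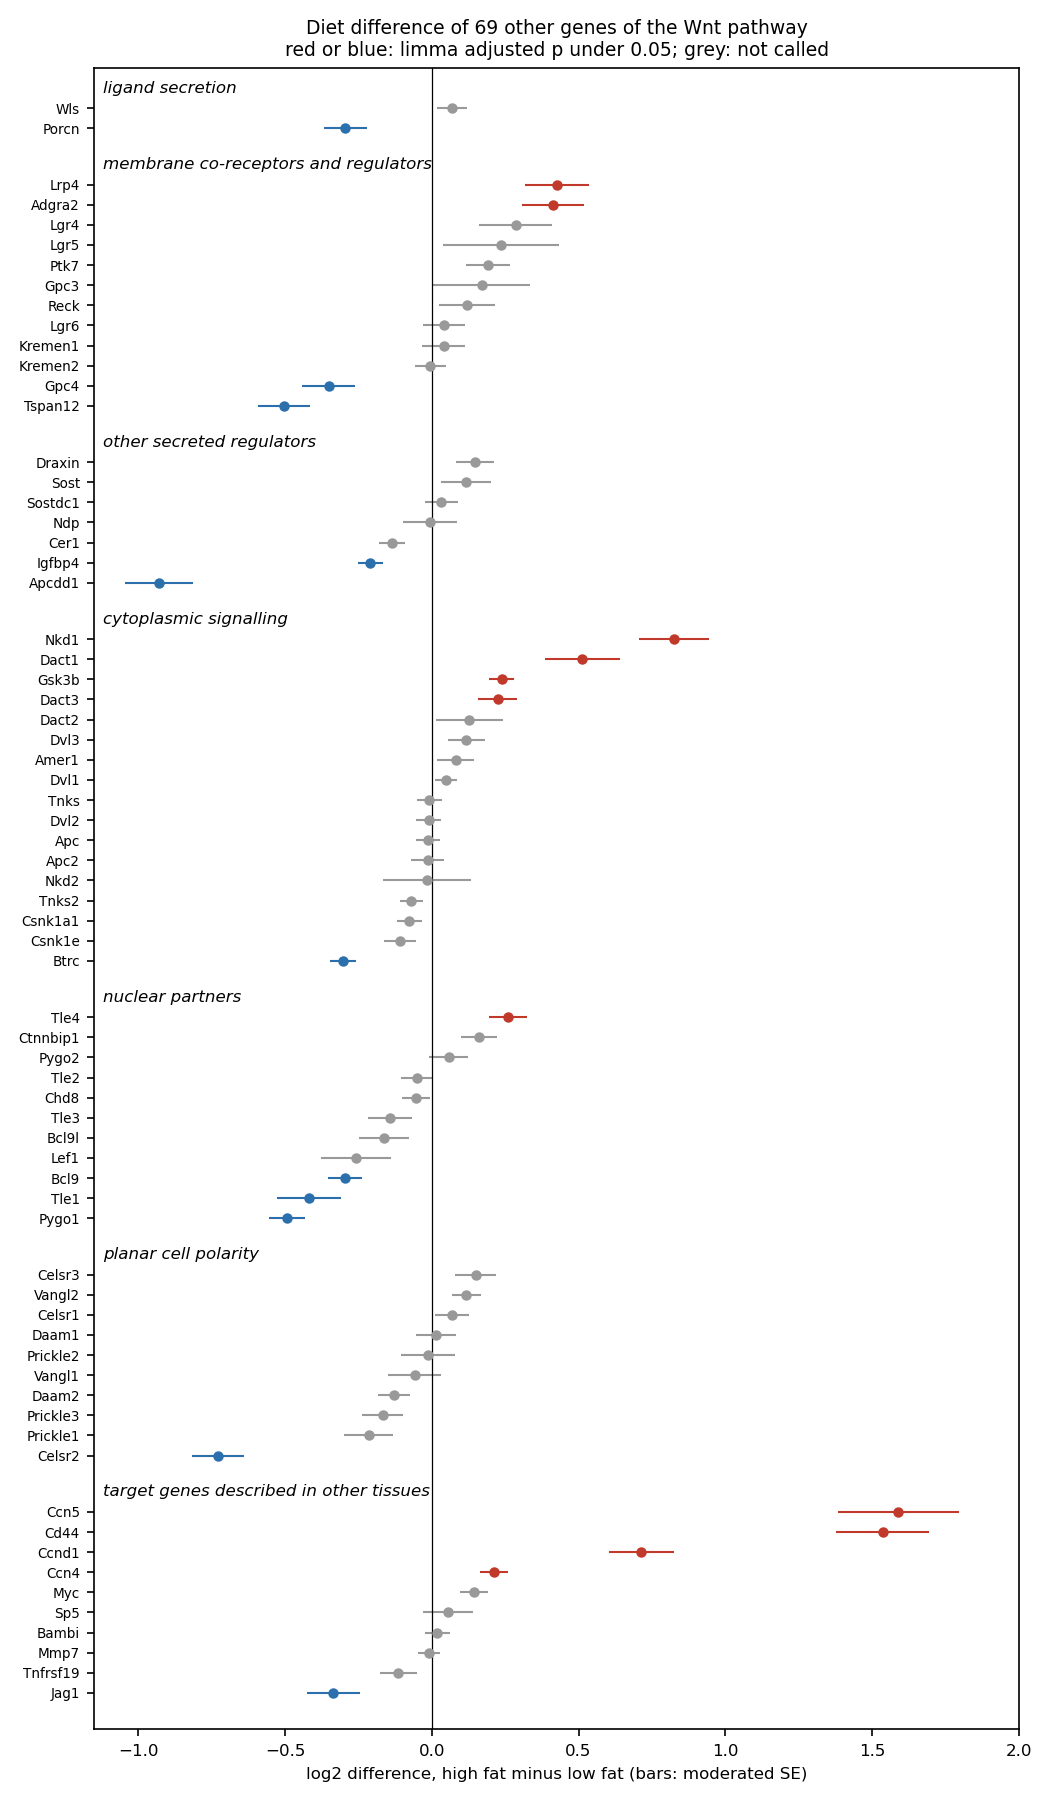
Log2 difference between high fat (n = 5) and low fat (n = 4) mice for 69 other genes of the Wnt pathway, grouped by role on the y axis; points are differences, bars the moderated SE, red or blue marks an adjusted p under 0.05 and grey the rest. Ccn5 and Cd44 lie farthest to the right at 1.59 and 1.54, and Apcdd1 and Celsr2 farthest to the left at -0.93 and -0.73.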

How the data were processed

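Each of 9 mice gave 1 Affymetrix Mouse Gene 2.0 ST array. The authors deposited log2 expression values per probe set in a table of 33793 rows; RMA, limma and R 3.5.0 are named, per the submitters' processing notes, without saying what each did. RMA corrects background, equalises the distributions of arrays and summarises probes into probe sets. Scan dates and detection calls were not used here. Precision is limited by having only 9 arrays.

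Probe sets with 1 symbol (23521 of 25335 in the probe table; 1814 have several) were matched by Entrez identifier to a GRCm38.p6 table, which changed 0 symbols, and each of 22180 genes was represented by its probe set of highest mean. Diet was tested with limma 3.58.1 (lmFit, eBayes, default settings) in R 4.3.3 across all genes, with Benjamini-Hochberg adjustment over them and no fold threshold. Titles number the mice within each diet; nothing else says how samples were related, beyond 1 mouse per array. The fit was tested on simulated data first.

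The members and lists were chosen with earlier results of these data known. Every called member is named, as are 19 members fixed by name (Wnt5a, Wnt10b, Wnt4, Fzd1, Fzd4, Sfrp1, Sfrp2, Sfrp5, Dkk2, Dkk3, Wif1, Lrp5, Lrp6, Ror2, Axin2, Ctnnb1, Tcf7l2, Rspo1 and Rspo3), and up to 4 called genes per role and direction of the pathway list. Alternatives covered scaling, a filter at the 6.30 mark, the choice of probe set, array weights, the prior variance, a block for mouse number, adjustment over all rows and leaving out mice. Marker lists of endothelial cells (1 higher and 1 lower of 7), B and plasma cells (2 of 5 lower), T cells (0 of 5 called) and Schwann cells (1 of 2 higher) were measured too. Protein sequences were not used here.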

Additional observations from a re-analysis of the deposited data

Results flagged for a closer look

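A mouse lay far from the rest of its diet group, by the ratio of its gap to the group's range, in 7 of 74 groups of values examined (26 named members and 11 marker lists, each in both diets). Chance alone flags about 1 in 20 independent groups. These groups share the same 9 arrays, so the 7 cannot be read as an excess. Sfrp4 was 8.91 in high fat mouse 5 and 7.14 to 7.51 in the rest of that diet group. Wnt5a was 7.07 in low fat mouse 4, with 7.26 to 7.29 in the rest of that diet group. The mean of progenitor and fibroblast markers was also low in that mouse, at 9.85 against 10.19 to 10.24. Wnt10b was 6.61 in high fat mouse 4 against 6.21 to 6.32 in the others. Smooth muscle markers stood at 10.21 in low fat mouse 2 against 8.11 to 8.13, and skeletal muscle markers at 8.56 in high fat mouse 1 against 6.55 to 6.67 and at 7.49 in low fat mouse 4 against 6.69 to 6.76. No cause of these values was tested.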

How the results depend on the processing

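Of the 12 called members, 6 (Dkk3, Ror1, Sfrp4, Tcf7l1, Tcf7l2 and Znrf3) passed in all 18 alternatives, and Fzd2, Fzd4, Fzd6, Sfrp2, Wnt5a and Wnt8b lost the call in at least 1. The dim filter removes Wnt8b by construction and so gave no value for it. No called member changed direction. Over 26 named members and all alternatives, 403 values kept direction and side of the threshold, 42 lost the call, 5 gained it and 17 changed sign, all of the latter in Axin2, Dkk2 and Wnt10b, whose differences were near 0. Axin2 was -0.049 with quantile normalization repeated, -0.040 with centring, -0.19 with the mean of its probe sets, -0.10 without high fat mice 1 and 2, and -0.11 to 0.19 without single mice. Dkk2 was 0.018 without high fat mice 1 and 2, and -0.095 to 0.024 without single mice. Wnt10b was 0.040 without high fat mice 1 and 2, 0.0027 with the mouse number as a replicate block, and -0.082 to 0.057 without single mice.

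The count of higher members was 5 to 7 without single mice and 4 with the replicate block; the count of lower members was 3 to 5 without single mice and 3 without high fat mice 1 and 2. Higher pathway genes numbered 7 to 11 without single mice and lower ones 8 to 11. The labels tie no mice of 1 number together, so the number was not treated as a pairing. Correlations of deviations over all genes were 0.05 to 0.13 between mice of 1 number and -0.16 to 0.16 between others. Of 8 mice 3 were closest to their own number. So few pairs cannot settle whether mice were paired. With the number as a block 4 members were higher and 4 lower, and Fzd2, Fzd6, Sfrp2 and Wnt5a did not pass (limma adjusted p = 0.0897, 0.131, 0.0567 and 0.0657). No low fat mouse has the number of high fat mouse 5, so with the block that mouse adds nothing to the difference. The Sfrp2 difference, for example, was 0.54 both with the block and without high fat mouse 5. Fewer samples thus inform the block fit and the fits without mice, and the cause of other lost calls was not tested. Depth does not apply to arrays, and signal over background was not available, which limits what can be said of the 16 dim members.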

Other observations

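High fat mouse 5 differed from its group in further genes of the pathway, picked here after their values were seen. Wnt2, a canonical ligand, was 7.10 in that mouse against 6.46 to 6.60 in the rest of the high fat group and 6.41 to 6.58 in low fat mice. Lgr5, a receptor of R-spondins, was 6.90 against 5.79 to 6.03 and 5.77 to 5.94. The same mouse had the highest Sfrp4, Sfrp2 and Rspo1 values and the highest means of mesothelial markers (9.30) and of progenitor and fibroblast markers (11.06). Nkd2, a relative of Nkd1, was 7.47 in low fat mouse 2, the mouse with high smooth muscle markers, against 6.72 to 6.86 in the rest of that group. These are values of single mice and were not tested.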
